A study of Mus musculus with 24 samples.

Results

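ST_Mm_074 is a mouse probe of a targeted spotted array whose genes serve cholesterol homeostasis, drug metabolism and the circadian clock, and the platform table used here assigns it to Mbtps1 (Entrez gene 56453). It is 1 of 284 mouse probes and has 3 spots per array, 72 of the 34560 spots in all. It was chosen on the readout, by its ID, for its rise after PCN in wild type livers, so its wild type ratio is given as a description with no test. In the values computed here it is 1 of the 5 tested probes whose mean log2 ratio in wild type livers reached 2-fold. RefSeq places Mbtps1 on chromosome 8, minus strand, from 119508151 to 119558864 in the build GRCm38.p6. The sequence of the probe was not used here, its place within the transcript was not analysed, and whether it also binds other transcripts was not tested, so every value below is that of the probe.

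The 24 arrays measured liver RNA of male C57BL/6J mice aged 9 to 12 weeks, 6 arrays each for mice deficient in both the constitutive androstane receptor (CAR) and the pregnane X receptor (PXR), written CAR/PXR deficient, for CAR deficient, for PXR deficient and for wild type mice. Every array carried RNA of livers taken 12 h after an intraperitoneal injection of 40 mg/kg PCN, labelled with Cy5, against a pool of vehicle-injected livers (5% DMSO in corn oil) of the same genotype, labelled with Cy3. Positive log2 ratios thus stand for more signal after PCN than in the vehicle pool, which the labels also call untreated. The labels call the Cy3 sample a pool, and their extraction protocol, given once per array under the Cy5 sample, says that the RNA of 6 replicates was combined. The 6 arrays of a genotype may therefore share RNA in Cy5 too, and p-values then measure the spread between arrays, which may be technical.

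Mbtps1 encodes the site-1 protease of the Golgi. This protease makes the first cut in the membrane-bound precursors of the sterol regulatory element binding proteins (SREBPs), which drive cholesterol and fatty acid synthesis, and in the stress sensor ATF6. PCN is a synthetic steroid that activates rodent PXR, a nuclear receptor of the liver. PXR and its relative CAR pair with the retinoid X receptor at repeats of a short half-site near their target genes, of which Cyp3a11 is the classic mouse example.

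The promoter sequences of Mbtps1 and, for comparison, of Cyp3a11 are shown because such half-sites are the known contact of PXR and CAR with DNA. Both come from RefSeq, build GRCm38.p6, minus strand, and run 5′ to 3′ up to the base before the annotated gene. Capitals mark the letters AGGTCA or AGTTCA, searched on both strands, so that TGAACT marks AGTTCA on the other strand. The Mbtps1 stretch is chr8:119558865-119559011 and the Cyp3a11 stretch is chr5:145879855-145880104.
Mbtps1: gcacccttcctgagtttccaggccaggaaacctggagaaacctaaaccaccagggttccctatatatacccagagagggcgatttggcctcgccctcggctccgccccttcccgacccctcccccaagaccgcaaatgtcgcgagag
Cyp3a11: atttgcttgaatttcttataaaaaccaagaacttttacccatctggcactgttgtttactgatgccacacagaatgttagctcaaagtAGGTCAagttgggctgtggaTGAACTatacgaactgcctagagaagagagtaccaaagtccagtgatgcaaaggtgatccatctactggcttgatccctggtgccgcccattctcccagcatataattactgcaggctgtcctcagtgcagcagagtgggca
Neither half-site occurs in the 147 bases of Mbtps1, nor in the 250 bases before the start that the RefSeq table uses, which reach into the annotated gene. The 250 bases of Cyp3a11 hold 1 match of each. Among 32851 mouse promoter windows of 250 bases, 14.0% hold AGGTCA, 11.8% hold AGTTCA and 24.2% hold at least 1 of them. A match describes letters only, and its absence says nothing of sites outside the window.

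Median foreground intensity over all spots ran from 109 to 891 in Cy5 and from 175 to 1042 in Cy3 between arrays, and each array showed 158 to 243 of the mouse probes above background. Over probes, single arrays of CAR/PXR deficient livers correlated with those of CAR deficient livers at a median r of -0.36 and with those of PXR deficient livers at a median r of -0.51; the dyes are the same on every label, so the direction was kept. The liver markers Apoa1, an apolipoprotein, and Cyp2e1, a hepatocyte cytochrome P450, were bright in every genotype, with mean Cy5 levels of at least 13.1 and 12.2 on the log2 scale. The receptor probes Nr1i2 (PXR) and Nr1i3 (CAR) were above background in Cy5 on 5 or 6 of 6 arrays of each genotype. Both channels of an array share a genotype and the parts of the receptor genes that the probes cover are not known here, so the ratios do not check the deletions.

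No rise of the Mbtps1 probe was detected where PXR was missing. In CAR/PXR deficient livers the log2 ratio was lowest at -0.10, had a median of 0.04 and was highest at 0.07. The mean was 0.01 ± 0.07 (SD, n = 6), with a 95% interval of -0.16 to 0.18 and an adjusted p of 0.925 in limma, a linear model fitted over all 24 arrays with Benjamini-Hochberg adjustment over the 236 probes that were bright enough to be tested. At the threshold of 0.05 for that adjusted p, 22.5% of the tested probes passed in CAR/PXR deficient livers (10.6% higher and 11.9% lower). In PXR deficient livers the log2 ratio was lowest at -0.15, had a median of 0.14 and was highest at 0.16, with 5 of 6 arrays above 0. The mean was 0.09 ± 0.12 (SD, n = 6), with a 95% interval of -0.08 to 0.25 and an adjusted p of 0.407 in limma, while 39.0% of the tested probes passed (19.5% higher and 19.5% lower, that is 46 of each). That split depends on the scaling: centring on control probes in place of loess gave 47 higher and 4 lower, median centring 37 and 19, and the deposited log2 values 39 and 21. The intervals leave room for small changes and reach neither the CAR deficient nor the wild type mean.

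The Mbtps1 probe rose after PCN in CAR deficient livers. In bulk liver RNA, more of this RNA per cell and more cells that carry it cannot be told apart. The log2 ratio was lowest at 0.12, had a median of 0.79 and was highest at 0.97, all 6 arrays being above 0. The mean was 0.70 ± 0.30 (SD, n = 6), with a 95% interval of 0.53 to 0.87 on the log2 scale and an adjusted p of 2.75e-07 in limma. The model shares 1 spread per probe over all genotypes, which gave each genotype mean an SE of 0.08. The SD between arrays was unequal, from 0.07 in CAR/PXR deficient to 0.30 in CAR deficient livers. This interval and p are therefore not those of the 6 CAR deficient arrays alone. The vehicle channel of these arrays was above background on 1 of 6, so the size of the ratio depends on the background correction. Plain subtraction of local background gave 1.23 (95% interval 0.946 to 1.51, adjusted p 2.54e-07 in limma). In the same comparison 16.9% of the tested probes passed (6.78% higher and 10.2% lower). Replicate 3 was the lowest array, and 1 of its 3 spots was at -0.46 and another at 0.82. The exact sign-flip test over the 6 arrays gave a two-sided p of 0.0312, the smallest it can give, and 0.0625 after Benjamini-Hochberg adjustment over the 6 comparisons.

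In wild type livers the Mbtps1 probe was higher after PCN on all 6 arrays. Its normalized log2 ratio was lowest at 0.78, had a median of 1.07 and was highest at 1.50. The mean was 1.09 ± 0.24 (SD, n = 6), which is 2.13-fold, and all 18 wild type spots were above 0, between 0.65 and 1.65. This was the fifth highest wild type ratio among the 236 tested probes. The fourth was Cyp3a13, a cytochrome P450 of the Cyp3a family, at 1.23 (2.35-fold), and the first probe below 2-fold was Slco1a4, a sinusoidal uptake transporter of organic anions, at 0.75 (1.68-fold). Among wild type arrays 37.7% of the tested probes passed (21.2% higher and 16.5% lower, or 50 and 39 probes), against 16 higher and 22 lower with the deposited log2 values. Single arrays weighed on this count: 46 probes passed without wild type replicate 1 (21 higher and 25 lower) and 55 without replicate 2 (25 higher and 30 lower).

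**Figure D1:**
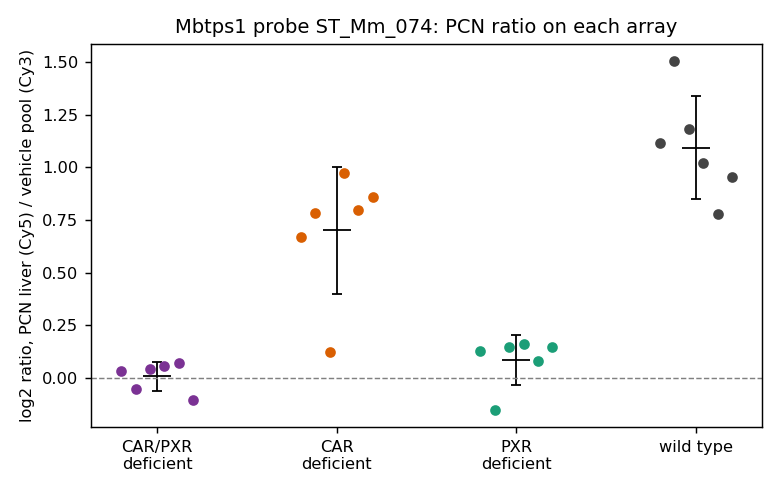
Normalized log2 ratio of Cy5 (PCN-treated liver) over Cy3 (vehicle pool) for the Mbtps1 probe, 1 point per array, with the mean and SD of the 6 arrays of each genotype as a bar and whiskers. CAR/PXR deficient arrays lie between -0.10 and 0.07 and PXR deficient arrays between -0.15 and 0.16, while wild type arrays lie between 0.78 and 1.50.

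The PCN ratio of the Mbtps1 probe in CAR deficient livers differed from that in each genotype lacking PXR. It was lower in CAR/PXR deficient than in CAR deficient livers by a log2 difference of -0.69 (SE 0.11, 95% interval -0.93 to -0.46, adjusted p 4.47e-05 in limma), in a comparison where 22.5% of the tested probes passed and 11.0% were lower. The highest CAR/PXR deficient array was at 0.07 and the lowest CAR deficient array at 0.12. The share of all tested probes whose arrays separate in this way is not given here, so the separation is only a description. CAR deficient minus PXR deficient livers gave a positive difference of 0.61 (SE 0.11, 95% interval 0.38 to 0.85, adjusted p 0.000348 in limma), where 32.6% of the tested probes passed, 43 higher and 34 lower. With the same 3 other scalings these were 4 and 28 (control probes), 10 and 18 (median) and 11 and 29 (deposited). Without PXR deficient replicate 2 the number was 49, with 24 higher and 25 lower. Plain subtraction of local background gave larger differences, -1.17 for CAR/PXR deficient minus CAR deficient (adjusted p 5.77e-05 in limma) and 1.06 for CAR deficient minus PXR deficient (adjusted p 0.000436). Here replicate 3 of the CAR deficient arrays, at 0.12, lay within the PXR deficient range, and the other CAR deficient arrays lay above it. Between CAR/PXR deficient and PXR deficient livers the difference was -0.08 (95% interval -0.31 to 0.16, adjusted p 0.622 in limma), and the ranges overlapped. In that comparison 41.5% of the tested probes passed, 57 higher and 41 lower, against 10 and 38, 29 and 32, and 26 and 41 with those scalings. Centring on control probes moved the median log2 ratio of all tested probes by -0.151 in CAR/PXR deficient, -0.0828 in CAR deficient, 0.145 in PXR deficient livers and -0.122 in wild type livers. Relative to that median the Mbtps1 probe was then at -0.18 in CAR/PXR deficient, 0.66 in CAR deficient, 0.08 in PXR deficient livers and 1.05 in wild type livers.

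Exact tests over the 924 splits of 12 arrays gave two-sided p-values of 0.00216 for CAR/PXR deficient minus CAR deficient and 0.0108 for CAR deficient minus PXR deficient, or 0.013 and 0.0325 after adjustment over the 6 comparisons. With only spots above background in both channels kept, which left 4 CAR/PXR deficient, 3 CAR deficient and 6 PXR deficient arrays with a value, neither difference passed (-0.46 with an adjusted p of 0.236 in limma, and 0.41 with 0.182), and the CAR deficient rise was 0.46 with an adjusted p of 0.102. With ratios centred on control probes in place of loess, CAR deficient minus PXR deficient was 0.38 with an adjusted p of 0.268 in limma. Arrays were scanned in positions with smaller and larger Y coordinates, 3 of each per genotype. Among arrays with smaller Y the CAR/PXR deficient minus CAR deficient difference was -0.90 (adjusted p 0.000373) and CAR deficient minus PXR deficient was 0.73 (adjusted p 0.00465), while among arrays with larger Y they were -0.48 (adjusted p 0.117) and 0.50 (adjusted p 0.133), all in limma.

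Against wild type, where the choice of the probe bears on the difference, the values are descriptions. The mean log2 ratio was 1.08 below wild type in CAR/PXR deficient livers, 0.39 below wild type in CAR deficient livers and 1.01 below wild type in PXR deficient livers. CAR deficient arrays overlapped with wild type arrays, since 4 of the CAR deficient arrays exceeded the lowest wild type array. No CAR/PXR deficient or PXR deficient array reached the lowest wild type array, and the share of all tested probes so separated is not given here.

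The channel levels give each side of the ratio. Levels are log2 intensities after loess within arrays and quantile normalization of mean intensities between arrays. The Cy5 level, from PCN-treated livers, averaged 7.42 ± 0.13 in CAR/PXR deficient, 7.89 ± 0.34 in CAR deficient, 7.41 ± 0.17 in PXR deficient livers and 8.20 ± 0.28 in wild type livers (SD, n = 6 each). It ran from 7.24 to 7.63 in CAR/PXR deficient livers and from 7.20 to 7.58 in PXR deficient livers, both below the wild type range of 7.93 to 8.61. CAR deficient arrays ran from 7.57 to 8.47 and overlapped with those of wild type livers. Of the 284 mouse probes, 147 had a lower mean Cy5 level in wild type livers and 139 in CAR deficient livers. In CAR/PXR deficient livers 92 had a lower one, and in PXR deficient livers 92.

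The normalized Cy3 level, from the vehicle pools, had genotype means closer to each other than those of Cy5. It averaged 7.41 ± 0.11 in CAR/PXR deficient, 7.19 ± 0.35 in CAR deficient, 7.33 ± 0.12 in PXR deficient pools and 7.11 ± 0.19 in wild type pools (SD over 6 readings). Since the labels give the Cy3 channel of every array of a genotype as a pool, this spread says nothing of the variation between vehicle-treated mice. The CAR/PXR deficient readings from 7.25 to 7.57 overlapped with the wild type readings from 6.76 to 7.35. Of the 284 mouse probes, 98 had a lower mean Cy3 level in CAR/PXR deficient and 70 in CAR deficient pools. In PXR deficient pools 80 had a lower one, and in wild type pools 63.

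**Figure D2:**
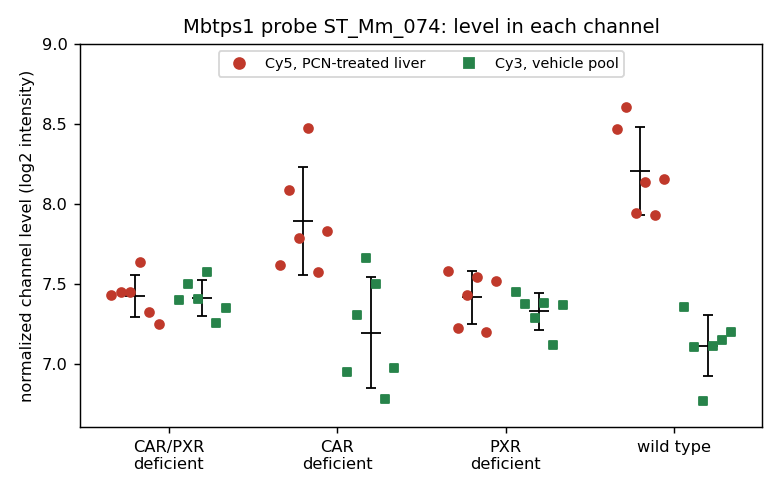
Normalized log2 channel level of the Mbtps1 probe, 1 circle per array for Cy5 (PCN-treated liver) and 1 square per array for Cy3 (vehicle pool), with the mean and SD of 6 arrays. The channels lie apart in wild type livers, at 8.20 in Cy5 and 7.11 in Cy3, and together in CAR/PXR deficient livers, at 7.42 and 7.41.

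The share of spot pixels brighter than the local background by 2 SD describes how visible the probe was. In Cy5 it averaged 78.8% ± 10.7 in CAR/PXR deficient, 67.1% ± 20.8 in CAR deficient, 61.4% ± 12.8 in PXR deficient livers and 92.7% ± 5.71 in wild type livers (SD, n = 6 each). In Cy3 it averaged 51.2% ± 9.95 in CAR/PXR deficient, 30.2% ± 15.3 in CAR deficient, 58.6% ± 19.9 in PXR deficient pools and 53.1% ± 20.1 in wild type pools. The Cy5 share was above the Cy3 share on all 6 wild type arrays, whose Cy5 values ran from 86.7% to 100% and whose Cy3 values ran from 29.0% to 73.7%.

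Counted over spots with more than 50% of such pixels, Cy5 passed in 16 of 18 spots of CAR/PXR deficient, 13 of CAR deficient, 15 of PXR deficient and 18 of wild type livers. Cy3 passed in 9 spots of CAR/PXR deficient, 4 of CAR deficient, 12 of PXR deficient and 11 of wild type pools. Over arrays, with at least 50% of the spots required, the Cy3 channel was above background on 3 CAR/PXR deficient, 1 CAR deficient, 5 PXR deficient and 3 wild type arrays of 6. The CAR deficient ratio therefore rests on a vehicle pool that was above background on 1 array. No pixel of the probe was saturated, and 2 of its spots carried a flag, 1 each on replicates 3 and 5 of the CAR deficient arrays.

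**Figure D3:**
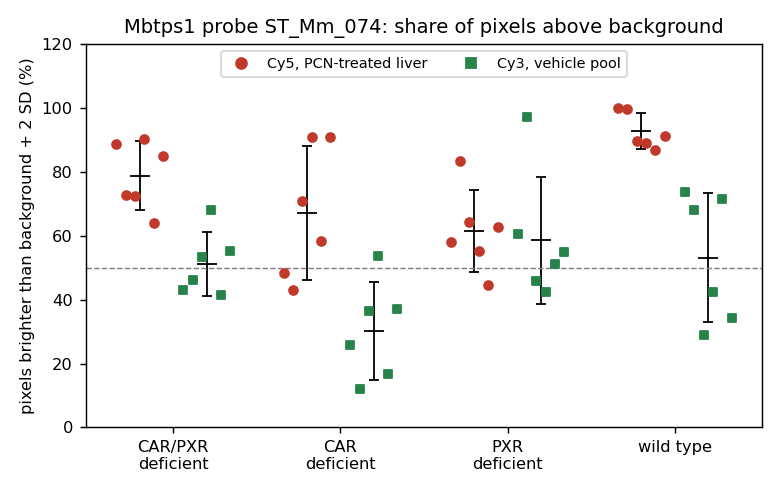
Share of the pixels of the Mbtps1 spots brighter than local background by 2 SD, averaged over 3 spots, 1 circle per array for Cy5 (PCN-treated liver) and 1 square per array for Cy3 (vehicle pool), with the mean and SD of 6 arrays and a dashed line at 50%. Wild type Cy5 values lie at 86.7% or above, and 5 of 6 CAR deficient Cy3 values lie under the line.

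Before normalization the mean foreground of the probe was below the mean of the all-spot medians in both channels of every genotype. In wild type arrays it was 264 against 406 in Cy5 and 181 against 495 in Cy3. The median intensity minus local background in Cy5 averaged 67.5 ± 30.0 in CAR/PXR deficient, 207 ± 61.2 in CAR deficient, 95.6 ± 52.6 in PXR deficient livers and 223 ± 79.6 in wild type livers (SD, n = 6 each). In Cy3 it averaged 72.3 ± 9.59 in CAR/PXR deficient, 115 ± 64.9 in CAR deficient, 91.5 ± 47.7 in PXR deficient pools and 87.5 ± 27.8 in wild type pools. These unnormalized Cy3 means were higher in CAR deficient and wild type than in CAR/PXR deficient pools, the reverse of the order of the normalized Cy3 levels, so that order depends on the normalization. On 2 CAR/PXR deficient arrays, replicates 5 and 6, the Cy5 background was recorded as 0. Without them the CAR/PXR deficient ratio was 0.02 and the difference from CAR deficient livers was -0.68 (adjusted p 0.000531 in limma).

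The 3 spots of an array had a median SD of 0.05 in CAR/PXR deficient, 0.32 in CAR deficient, 0.08 in PXR deficient livers and 0.19 in wild type livers on the log2 scale. The spots of CAR deficient arrays ran from -0.46 to 1.18, and 17 of 18 were above 0. The spread between spots was thus of the same size as the spread between arrays in CAR deficient livers (0.30) and smaller than it in wild type livers (0.24). Over all tested probes the residual SD of the log2 ratio had a median of 0.17, against 0.21 for the Mbtps1 probe.

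The probe most like it over the 24 arrays was Cyp3a13, with a root mean square difference of 0.27 in log2 ratio, against a median of 0.72 over the other 235 tested probes. Cyp3a13 averaged 0.25 ± 0.11 in CAR/PXR deficient, 0.79 ± 0.32 in CAR deficient, -0.01 ± 0.08 in PXR deficient livers and 1.23 ± 0.16 in wild type livers (SD, n = 6 each). The next were Slco1a4, at 0.46, and Alas1, which encodes the rate-limiting enzyme of haem synthesis, at 0.48. Slco1a4 averaged 0.25 ± 0.26 in CAR/PXR deficient and 0.32 ± 0.58 in CAR deficient livers. Its CAR deficient ratio did not pass (adjusted p 0.149 in limma). In PXR deficient livers Slco1a4 averaged -0.01 ± 0.13 and in wild type livers 0.75 ± 0.49. Alas1 averaged -0.16 ± 0.30 in CAR/PXR deficient, 0.42 ± 0.10 in CAR deficient, 0.11 ± 0.12 in PXR deficient livers and 0.36 ± 0.28 in wild type livers. The likeness was measured on the arrays that chose the Mbtps1 probe, and no test was made of it.

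The 3 probes with higher wild type ratios than Cyp3a13 were Cyp3a11, Cyp3a41a, another Cyp3a family cytochrome P450, and the unnamed probe ST_Mm_051. In CAR/PXR deficient livers Cyp3a11 was at -0.37, Cyp3a41a at -0.24 and ST_Mm_051 at -0.24, whereas Cyp3a13 was at 0.25 and Mbtps1 at 0.01. In CAR deficient livers Cyp3a11 was at 2.23, Cyp3a41a at 1.94 and ST_Mm_051 at 1.47, above Cyp3a13 at 0.79 and Mbtps1 at 0.70. In PXR deficient livers the ratios were 0.30 for Cyp3a11, 0.16 for Cyp3a41a, 0.50 for ST_Mm_051, -0.01 for Cyp3a13 and 0.09 for Mbtps1. The wild type ratios were 2.94 for Cyp3a11, 2.85 for Cyp3a41a and 1.73 for ST_Mm_051.

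**Figure D4:**
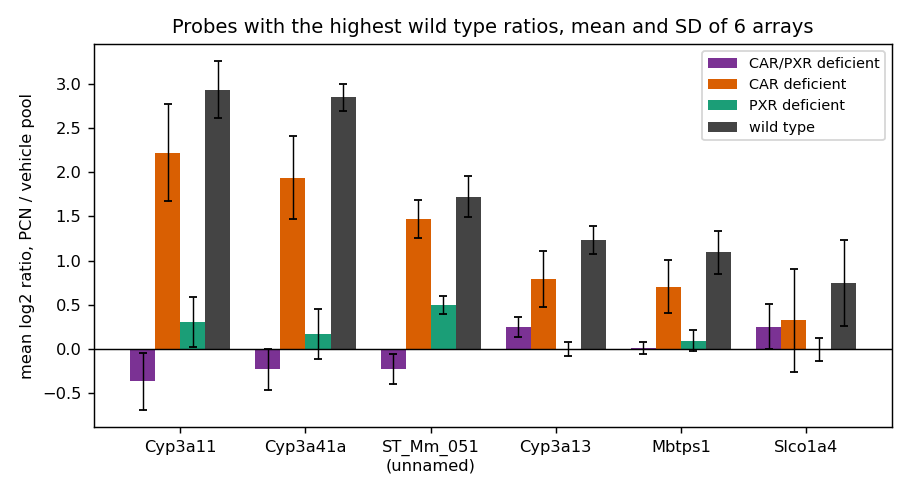
Mean log2 ratio of PCN-treated liver over vehicle pool for the 6 probes with the highest wild type ratios, as bars with the SD of 6 arrays, by genotype. Mbtps1, at 1.09 in wild type livers, follows Cyp3a13 at 1.23 and precedes Slco1a4 at 0.75.

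On the slide, each of the 3 Mbtps1 spots lies in the last row of its print block, 260 µm below a spot of Cyp3a11, the most strongly raised probe. The net Cy5 intensity of the Cyp3a11 spots averaged 7846 in CAR/PXR deficient, 16494 in CAR deficient, 4418 in PXR deficient livers and 29629 in wild type livers, and that of the Mbtps1 spots was between 0.25% and 3.96% of it on every array. In CAR/PXR deficient livers the Cyp3a11 spots reached 4575 to 14806 in Cy5, while the Mbtps1 spots reached 36.3 to 106. For arrays of the other genotypes within that Cyp3a11 range, PXR deficient replicate 3 lay inside this Mbtps1 range and the others lay above it. These intensities are not normalized between arrays. CAR deficient replicates 2, 3 and 5 had Mbtps1 intensities of 138, 164 and 203, with log2 ratios of 0.78, 0.12 and 0.80. PXR deficient replicate 3 was at 78.7 with a ratio of 0.15, and PXR deficient replicate 5 was at 181 with a ratio of 0.08. Wild type replicate 5 was at 135 with a ratio of 0.78.

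Other neighbours of the Cyp3a11 spots were measured in the same way. The probe above them, ST_Mm_035, had mean log2 ratios of -0.01 in CAR/PXR deficient, 0.04 in CAR deficient, -0.03 in PXR deficient livers and -0.04 in wild type livers. The control spots to their right averaged -0.50 in Cy5 and 3.72 in Cy3 in CAR/PXR deficient and 1.78 and 0.39 in CAR deficient livers. In PXR deficient livers the control spots right of Cyp3a11 averaged 0.89 and 0.44, and in wild type livers -0.06 and 1.28. The spots of the same control to their left averaged 9.39 in Cy5 and 8.33 in Cy3 in CAR/PXR deficient, 314 and 334 in CAR deficient, 162 and 151 in livers of PXR deficient mice, and 342 in Cy5 and 468 in Cy3 in wild type livers. Its 45 spots elsewhere on the array averaged 3.79 in Cy5 and -1.79 in Cy3 in CAR/PXR deficient, 11.4 and 17.2 in CAR deficient, 7.51 and 8.87 in livers of PXR deficient mice, and 9.88 in Cy5 and 15.3 in Cy3 in wild type livers. The left control exceeded its spots elsewhere on 22 of 24 arrays in Cy5 and on 24 in Cy3, and the Mbtps1 spots exceeded the left control on 10 arrays in Cy5 and on 8 in Cy3. Directly right of the Mbtps1 spots, the same control averaged 0.50 in Cy5 and 3.28 in Cy3 in CAR/PXR deficient livers. At that place it averaged 78.1 and 79.7 in CAR deficient, 13 and 7.06 in PXR deficient and 2.44 and 2.22 in wild type livers. On CAR deficient replicate 3 it was at 189 and 170, against 164 and 133 for the Mbtps1 spots. On the other CAR deficient arrays the Mbtps1 spots were brighter than it in both channels. Below Cyp3a41a, whose wild type Cy5 intensity was 28936, the probe of Cyp4b1, a cytochrome P450, had log2 ratios of -0.30 in CAR/PXR deficient, 0.10 in CAR deficient, 0.12 in PXR deficient livers and 0.30 in wild type livers. Whether light or RNA of the Cyp3a11 spots enters the Mbtps1 ratio was not tested.

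**Figure D5:**
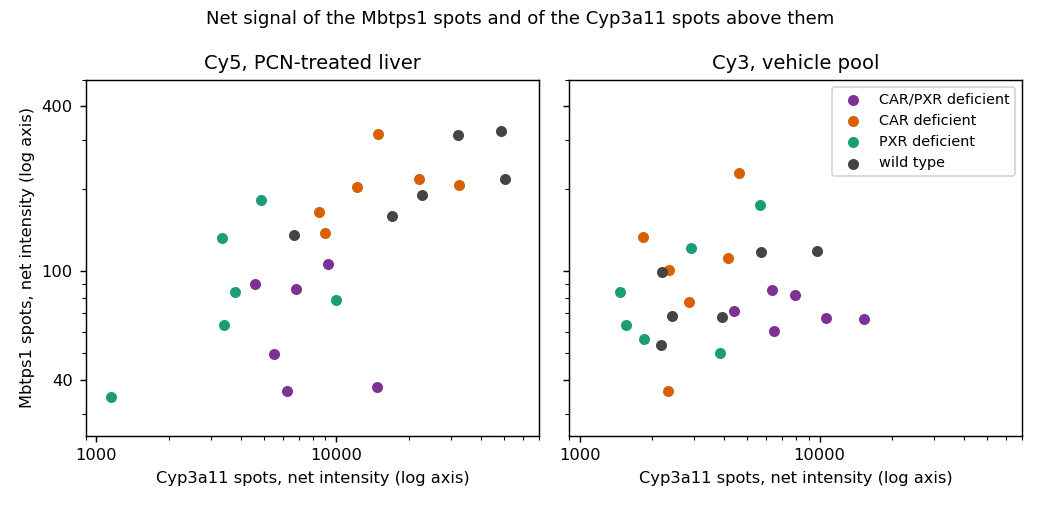
Net intensity (median foreground minus local background) of the Mbtps1 spots against that of the Cyp3a11 spots 260 µm above them, mean of 3 spots, 1 point per array, log axes, for Cy5 (left, PCN-treated liver) and Cy3 (right, vehicle pool). In Cy5 the CAR/PXR deficient arrays lie at 36.3 to 106 for Mbtps1 at Cyp3a11 intensities of 4575 to 14806, and the wild type arrays at 135 to 326.

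The other genes of SREBP processing on the array had ratios closer to 0 than Mbtps1 in CAR deficient livers. In wild type livers they did too, but Mbtps1 was chosen for its rise there, which largely fixed that contrast in advance. Over probes, CAR deficient and wild type arrays correlated at a median r of 0.67, so the choice may bear on the CAR deficient contrast too. They were Mbtps2 (the site-2 protease that makes the second cut), Scap (the sterol-sensing escort of SREBPs), Insig1 (which retains that escort in the endoplasmic reticulum), Srebf1 and Srebf2 (the SREBPs), all tested. None of these 5 passed in CAR/PXR deficient livers (median log2 ratio 0.09, against 0.04 over all tested probes) and none in CAR deficient livers (median 0.06, against -0.01). Without adjustment 1 of the 5 had a limma p below 0.05 in CAR/PXR deficient livers and 1 in CAR deficient livers. Of all 236 tested probes, 82 had such an unadjusted p in CAR/PXR deficient and 77 in CAR deficient livers. After adjustment, 22.5% of all tested probes passed in CAR/PXR deficient and 16.9% in CAR deficient livers. In PXR deficient livers 1 passed, where 39.0% of all probes did: Insig1, which rose by 0.46 ± 0.34 (SD, n = 6, adjusted p 0.00106 in limma). In wild type livers 3 passed, all higher, where 21.2% of all tested probes were higher, namely Scap at 0.17, Srebf1 at 0.22 and Srebf2 at 0.28, and the median of the 5 was 0.22, against -0.0021 over all tested probes. Over 4 other scalings (median centring, centring on control probes, loess within print blocks and the deposited values) Insig1 passed in 4, Scap in 3, Srebf1 in 1 and Srebf2 in 1. With ratios centred on control probes none of the 3 passed in wild type livers, at 0.145 for Scap (adjusted p 0.163), 0.12 for Srebf1 (adjusted p 0.266) and 0.10 for Srebf2 (adjusted p 0.685), all in limma.

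The enzymes of cholesterol synthesis, which SREBPs drive, gave 8 tested probes of 9. In CAR/PXR deficient livers 1 rose, Fdps, at 0.22, and none fell, where 10.6% of all tested probes rose and 11.9% fell. In CAR deficient livers none rose and 2 fell, Ebp at -0.34 and Fdft1 at -0.31, where 6.78% of all rose and 10.2% fell. In PXR deficient livers 1 rose, Fdft1, at 0.27, and 3 fell, Ebp at -0.49, Lss at -0.23 and Mvk at -0.20, where 19.5% of all rose and 19.5% fell. In wild type livers 2 rose, Lss at 0.20 and Mvd at 0.25, and 1 fell, Ebp at -0.21, where 21.2% of all rose and 16.5% fell. These counts of 8 probes were not tested against those shares. Of these 10 calls, the falls of Ebp in CAR deficient and PXR deficient livers passed under all 4 other scalings. Fdps passed in 3, Fdft1 in 2 in CAR deficient and in 2 in PXR deficient livers, Lss in none and Mvk in 1 in PXR deficient livers, and Lss in 3, Mvd in 1 and Ebp in 1 in wild type livers. Centred on control probes, Mvk in PXR deficient livers turned to 0.0061 without passing. The median log2 ratio of the 8 was 0.03 in CAR/PXR deficient, -0.03 in CAR deficient, -0.17 in PXR deficient livers and -0.03 in wild type livers.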

How the data were processed

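The 24 two-colour spotted arrays (1440 spots in 6 print blocks) were read from the deposited scanner tables. Per the file headers, these hold foreground and local background intensity per spot, the percent of pixels above background or saturated, and a flag; the scanner software is not given in the sources used here. The deposited table of log2 values from the authors served as an alternative; its normalization is not stated, and its columns correlated with the values computed here at r of 0.75 to 0.995, with array medians from -0.37 to 0.17.

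Foreground minus background medians were corrected with normexp (offset 50; 1 of 48 channels, Cy5 of CAR/PXR deficient replicate 6, was refitted by maximum likelihood), normalized by loess (span 0.3, 4 iterations, mouse spots without a flag weighted) and averaged over spots, in limma 3.58.1 under R 4.3.3. A spot was visible with over 50% of pixels above background in 1 channel or both, a probe with 50% or more of its spots visible, and probes visible on 50% or more of the arrays of some genotype were tested (236 of 284). The limma model estimated 1 coefficient for each genotype, without a replicate block, and was tested on simulated data. Those data had independent arrays and the same spread of a probe in every genotype. They therefore could not show what unequal spread or RNA shared between arrays does to the p-values. Cy5 always carried the PCN-treated RNA, so any dye bias of a probe remains in its ratios. It drops out of differences between genotypes only where it is the same in both, which was not tested. Precision is limited by the 6 arrays per genotype.

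The probe, the gene lists and the tests were chosen with earlier results of these data known; the lists of SREBP processing and cholesterol synthesis were added after the probes had been named. The platform table names 147 of the 284 mouse probes. The genes most like Mbtps1 are the 3 with the smallest root mean square difference over 24 arrays, and list members are named where they passed; Cyp4b1, ST_Mm_035 and ST_Mm_051 were named after their values were seen. Same-numbered arrays of different genotypes did not deviate together (36 correlations, median -0.01), so the numbers were not used as pairs.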

Additional observations from a re-analysis of the deposited data

Results flagged for a closer look

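In CAR deficient livers, replicate 3 lay far from the other 5 arrays, with a log2 ratio of 0.124 for the Mbtps1 probe against 0.67 to 0.97. In PXR deficient livers, replicate 2 lay apart at -0.151, against 0.08 to 0.16 for the other arrays, and its share of Cy3 pixels above background was 97%, against 42.3% to 60.7%. That array had a median Cy3 foreground of 657, the highest of the PXR deficient arrays, and a median Cy5 foreground of 225.5. Of the 20 sets of 6 values examined for such gaps, chance would flag about 1.

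The PCN ratio of the Mbtps1 probe differed between genotypes in 2 tested contrasts, CAR/PXR deficient minus CAR deficient at -0.692 and CAR deficient minus PXR deficient at 0.614 on the log2 scale.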

How the results depend on the processing

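The 6 tested results of the Mbtps1 probe were recomputed under 45 alternatives and the 4 described ones under 41, of which 3 on the scan position were added after seeing the data. These alternatives include the omission of each of the 24 arrays in turn, most of which were not CAR deficient arrays. The rise in CAR deficient livers passed under 43, CAR/PXR deficient minus CAR deficient under 43 and CAR deficient minus PXR deficient under 42, and the other 3 tested results passed under none. Among these other results the ratio of CAR/PXR deficient livers, 0.00886 on the log2 scale, lay below 0 with median centring (-0.227), centring on control probes (-0.297), the deposited log2 values (-0.127), spots above background in both channels (-0.00309) and smaller Y arrays (-0.0319). Larger Y arrays, 3 per genotype, gave CAR/PXR deficient minus PXR deficient 0.0184, CAR/PXR deficient minus CAR deficient -0.481 and CAR deficient minus PXR deficient 0.499, the last 2 no longer passing. With spots above background in both channels, which leaves out spots whose vehicle signal was dim and so fewer arrays, the CAR deficient ratio was 0.455, CAR/PXR deficient minus CAR deficient -0.458 and CAR deficient minus PXR deficient 0.405, none passing, and CAR deficient minus wild type was -0.636. Centring on control probes gave CAR deficient minus PXR deficient 0.381, no longer passing, and PXR deficient minus wild type -0.733. The exact test of the CAR deficient ratio (0.701) gave 0.0625 after adjustment, since 64 sign patterns allow no smaller p than 0.0312. Subtraction of local background without an offset gave 1.23 in CAR deficient livers, -1.17 for CAR/PXR deficient minus CAR deficient and 1.06 for CAR deficient minus PXR deficient, all passing and each over 1.5 times the reported size, and 1.71 in wild type livers, -1.64 for CAR/PXR deficient minus wild type and -1.53 for PXR deficient minus wild type, and normexp with offset 0 gave 1.45, -1.44 and -1.30 for the same quantities; an offset draws ratios of dim spots towards 0. The cause of the other changes was not tested.

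Leaving out 1 array at a time gave log2 ratios of -0.00363 to 0.0312 in CAR/PXR deficient, 0.646 to 0.816 in CAR deficient, 0.0713 to 0.134 in PXR deficient and 1.01 to 1.15 in wild type livers, and changed no call of the 6 tests. A replicate block left the CAR deficient ratio at 0.701 (limma adjusted p 4.98e-06), CAR/PXR deficient minus CAR deficient at -0.692 (adjusted p 0.000248) and CAR deficient minus PXR deficient at 0.614 (adjusted p 0.00158), and changed no other call. With the replicate numbers, 2 of 24 arrays correlated best with arrays of their own number. Over all alternatives the number of probes that passed ran from 21 to 88 in CAR/PXR deficient livers (53 as reported), 8 to 56 in CAR deficient (40), 30 to 101 in PXR deficient (92) and 15 to 100 in wild type (89), and from 22 to 60 for CAR/PXR deficient minus CAR deficient (53), 36 to 119 for CAR/PXR deficient minus PXR deficient (98) and 7 to 88 for CAR deficient minus PXR deficient (77). Of the channel levels, 22 moved by more than the SD between arrays and 50 did not. Signal over background was low in the vehicle channel, above it on 1 of 6 CAR deficient arrays, and the size of that ratio depends on the background correction.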

Other observations

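Of 31 listed PXR and CAR target genes, 11 had a tested probe. In CAR/PXR deficient livers 1 rose and 2 fell (median log2 ratio -0.16, against 0.04 over all tested probes, of which 10.6% rose and 11.9% fell). In CAR deficient livers 5 rose and 1 fell (median 0.30, against -0.01 over all, of which 6.78% rose and 10.2% fell). In PXR deficient livers 1 rose and 3 fell (median -0.01, against -0.03 over all, of which 19.5% rose and 19.5% fell), which is near the share over all probes. Centred on control probes, 4 of the 11 rose and 1 fell there, where 47 of all 236 tested probes rose and 4 fell under that scaling. In wild type livers 7 rose and none fell (median 0.22, against -0.0021 over all, of which 21.2% rose and 16.5% fell). Centring on control probes gave 5 that rose and 1 that fell in wild type livers, where 20 of all tested probes rose and 16 fell. Median centring gave 5 that rose and none that fell. Between CAR/PXR deficient and CAR deficient livers 7 of the 11 differed, all lower in the CAR/PXR deficient ones, where 11.0% of all tested probes were lower. Under control-probe centring 1 was higher and 5 were lower, where 11 of all tested probes were higher and 11 lower. Under median centring 6 were lower and none higher.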
